A study of Mus musculus with 9 samples.

Results

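The SLC25 family was examined in mouse bone marrow-derived dendritic cells (DCs), innate immune cells that sense microbes and start T cell responses. Members were taken as every row of the deposited gene count table whose symbol was Slc25a followed only by a number. This rule found 47 members among 55471 genes, and 40 of them had at least 10 counts in at least 3 of the 9 libraries. The other 7 were Slc25a18, Slc25a21, Slc25a27, Slc25a31, Slc25a41, Slc25a48 and Slc25a54, none of which passed 5 counts in any library. Of these, Slc25a21 and Slc25a41 had 0 counts in all 9 libraries, where the detection limit of 3 counts per library lay between 0.0674 and 0.106 counts per 1000000 (CPM).

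The cells were wild-type and were grown from C57BL/6 bone marrow in GM-CSF, a cytokine that drives marrow precursors towards DC-like and macrophage-like cells. The donors were female mice of 8 to 20 weeks of age. The first group was left unstimulated, another was given 100 ng/mL lipopolysaccharide (LPS, a bacterial cell wall component sensed by TLR4) and the last 1000 U/mL interferon-β (IFN-β, an antiviral cytokine), each for 6 h, with 3 libraries per group lettered A to C. Such cultures are mixtures rather than sorted cells. The libraries were made from ribosomal RNA-depleted total RNA and held 33425803 to 43735199 counts. The 8 DC and myeloid markers, among them Itgax, Cd74, H2-Ab1 and Lyz2, summed to at least 14550 CPM in every library, and 10 markers of T, B, NK, neutrophil, mast, red blood, epithelial and fibroblast cells to at most 2.62. All 8 stimulation markers, among them Il12b, Tnf, Mx1 and Isg15, rose under LPS, and 7 of them rose under IFN-β.

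SLC25 proteins are carriers of the inner mitochondrial membrane, which is otherwise closed to most metabolites. Each is built from repeated pairs of membrane-spanning helices, and most exchange a metabolite on one side of the membrane for another on the opposite side. They move ADP and ATP, phosphate, tricarboxylic and amino acids, cofactors, iron and glutathione, and so join the cytosol to respiration, the malate-aspartate shuttle, heme synthesis and fatty acid oxidation. A few members sit elsewhere, Slc25a17 in peroxisomes and Slc25a46 in the outer mitochondrial membrane.

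All 40 members entered a test of 16260 genes by edgeR's quasi-likelihood test, fitted over the 9 libraries, with Benjamini-Hochberg adjusted p under 0.05 as the threshold. Library values are given as CPM after TMM scaling, which corrects for the RNA composition of a library. Under LPS, 11 members rose and 17 fell. Of all genes tested, 32.8% rose and 35.4% fell in that comparison, against 27.5% and 42.5% of the members. Under IFN-β, 7 members rose and 11 fell, or 17.5% and 27.5%, where 23.6% of all genes rose and 23.3% fell. Set directly against LPS, the IFN-β libraries had 14 members higher and 9 lower, or 35% and 22.5%, where 25.8% of all genes were higher and 23.3% lower. The median log2 fold change of the members was -0.15 under LPS and -0.12 under IFN-β, beside -0.04 and -0.02 over all genes. Regardless of sign, the median log2 change was 0.52 after LPS and 0.25 after IFN-β for the members, beside 0.65 and 0.35 for all genes. Under LPS, members of the same substrate class often moved in opposite directions.

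**Figure D1:**
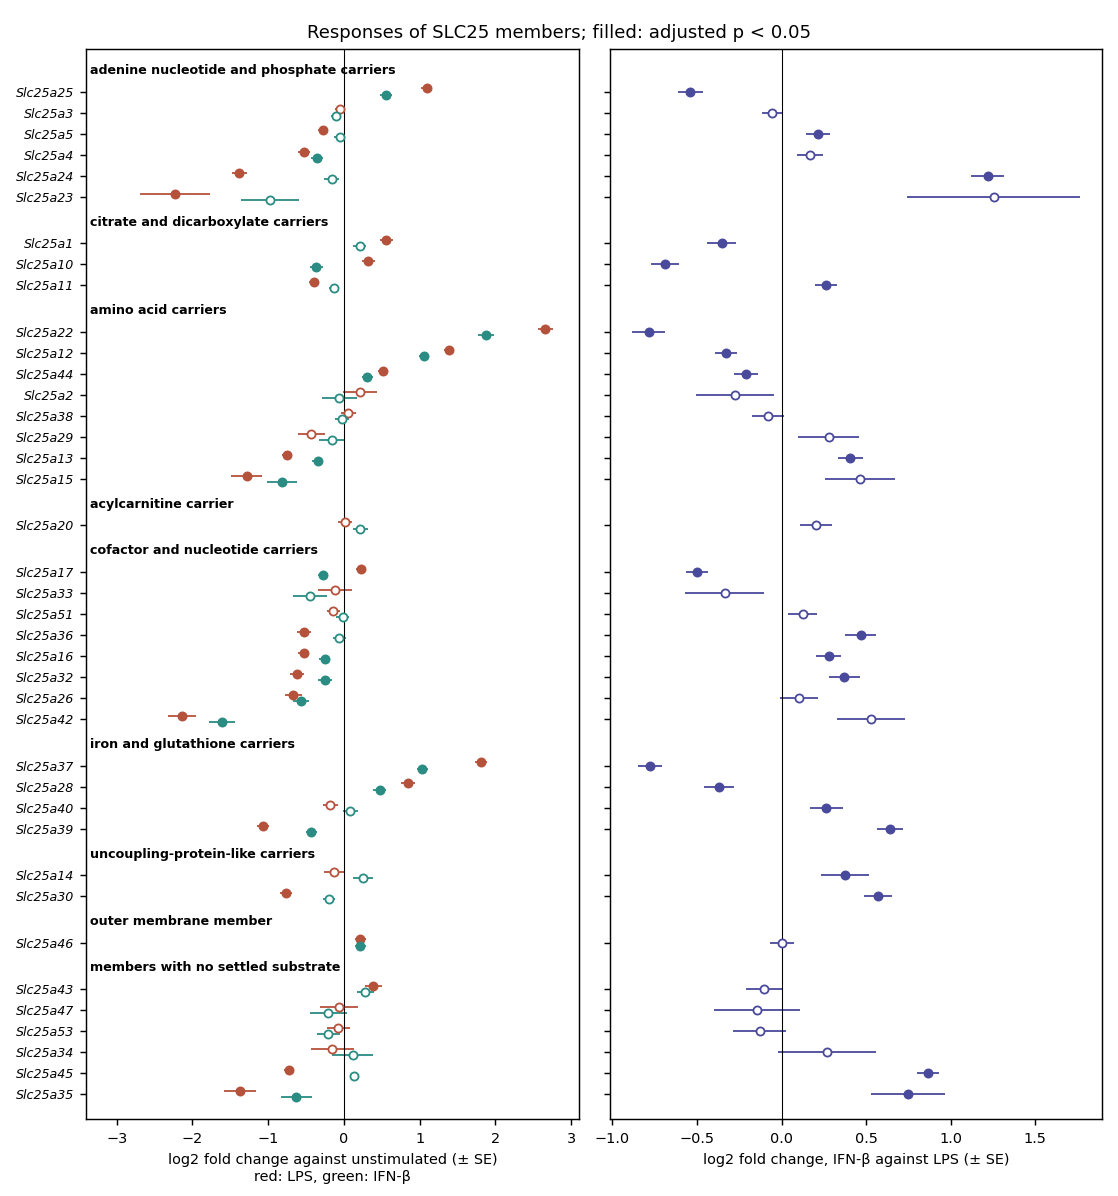
Log2 fold change (x axis, ± SE) of the SLC25 members shown, by substrate class, LPS (red) and IFN-β (green) against unstimulated cells on the left and IFN-β against LPS on the right. Filled points had an adjusted p under 0.05 in edgeR's quasi-likelihood test. Values under LPS ran from -2.23 for Slc25a23 to 2.66 for Slc25a22, and those under IFN-β from -1.61 for Slc25a42 to 1.87 for Slc25a22.

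These directions depend on scaling. TMM factors were 1.18 to 1.26 in unstimulated, 0.78 to 0.84 in LPS and 0.98 to 1.02 in IFN-β libraries, and with scaling by library size alone the median gene stood at -0.62 (log2) under LPS and at -0.32 under IFN-β. On that scale 5 members rose and 31 fell under LPS, 4 rose and 23 fell under IFN-β, and 24 were higher and 5 lower in IFN-β than in LPS libraries. Of all genes tested, 17.1% then rose and 60.9% fell under LPS, 13.2% rose and 46% fell under IFN-β, and 43.2% were higher and 12.3% lower in IFN-β than in LPS libraries. The 5 that still rose under LPS were Slc25a12, Slc25a22, Slc25a25, Slc25a28 and Slc25a37, while Slc25a1, Slc25a10, Slc25a17, Slc25a43, Slc25a44 and Slc25a46 changed sign. In bulk RNA a smaller share of cells of one type and less RNA per cell cannot be told apart. The labels do not say that the lettered libraries came from separate cultures or animals, so the p-values measure the spread between these libraries, which may be technical.

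Among carriers of amino acids, 3 of 8 rose and 2 fell under either stimulus. Of all genes, 32.8% rose and 35.4% fell under LPS, and 23.6% rose and 23.3% fell under IFN-β. Slc25a22, a glutamate carrier that imports glutamate with a proton, showed the largest rise of the family. Its level was 31.1, 27.5 and 24.9 CPM in unstimulated libraries A, B and C, 194, 177 and 156 CPM after LPS, and 103, 96.7 and 106 CPM after IFN-β. The 3 groups did not overlap and stood in the order unstimulated, IFN-β, LPS. Slc25a22 rose 6.31-fold under LPS (log2 2.66 ± 0.10 SE, adjusted p = 9.16e-09) and 3.67-fold under IFN-β (log2 1.87 ± 0.10, adjusted p = 8.93e-07). The IFN-β libraries were 1.72-fold below the LPS libraries (adjusted p = 6.96e-05).

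RefSeq windows from 250 bases before to 50 bases after the transcription start were found for 36 of the 47 members, 46 windows in all on GRCm38.p6. The letters GAAANNGAA, the core of an interferon-stimulated response element, stood on either strand in 5 of these 46 windows (10.9%), against 8.56% of all 32851 windows of that length. They lay at Slc25a15, Slc25a21, Slc25a22 and Slc25a43. The 3 windows that hold a match at genes with counts are shown. Of these genes, Slc25a22 rose and Slc25a15 fell under both stimuli. Slc25a43 rose under LPS (log2 0.39, adjusted p = 0.00871), a sign that turned with library-size scaling. Under IFN-β it did not pass the threshold (0.28, adjusted p = 0.0526). Each is written in the direction of transcription with the matched letters in capitals.
Slc25a22, chr7:141435326-141435625, minus strand: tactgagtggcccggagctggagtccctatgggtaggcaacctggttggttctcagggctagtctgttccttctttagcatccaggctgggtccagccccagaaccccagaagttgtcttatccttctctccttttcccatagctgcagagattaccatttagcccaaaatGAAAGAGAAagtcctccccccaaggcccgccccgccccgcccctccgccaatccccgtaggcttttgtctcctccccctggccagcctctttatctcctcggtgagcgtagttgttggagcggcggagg
Slc25a15, chr8:22398572-22398871, minus strand: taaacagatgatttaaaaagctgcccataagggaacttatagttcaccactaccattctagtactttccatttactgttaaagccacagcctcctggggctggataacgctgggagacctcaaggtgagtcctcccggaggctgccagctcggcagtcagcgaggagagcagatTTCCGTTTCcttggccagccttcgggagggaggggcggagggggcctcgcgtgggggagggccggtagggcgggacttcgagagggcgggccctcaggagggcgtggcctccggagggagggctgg
Slc25a43, chrX:36743382-36743681, plus strand: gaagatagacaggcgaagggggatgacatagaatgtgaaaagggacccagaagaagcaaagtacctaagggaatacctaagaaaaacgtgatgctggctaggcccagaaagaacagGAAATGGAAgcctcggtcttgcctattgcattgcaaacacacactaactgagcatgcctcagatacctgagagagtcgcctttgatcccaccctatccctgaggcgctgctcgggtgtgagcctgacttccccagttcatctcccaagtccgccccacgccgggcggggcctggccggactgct
The match began 79 bases before the start of Slc25a22, 76 before that of Slc25a15 and 134 before that of Slc25a43. Slc25a22 has 3 annotated windows and Slc25a15 has 2, and the other windows of both held no match. Neither GCGCATGCG, the letters bound by NRF1, nor TCAAGGTCA, an estrogen-related receptor element, was found in any of the 46 windows. They occurred in 1.75% and 0.423% of all windows. A match is only a description of these letters and no evidence of binding.

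Slc25a12 and Slc25a13 encode the aspartate-glutamate carriers AGC1 and AGC2 of the malate-aspartate shuttle, both regulated by calcium, and they moved in opposite directions. Slc25a12 stood at 51, 53.3 and 50 CPM in unstimulated libraries, at 140, 134 and 129 CPM after LPS and at 111, 99.7 and 111 CPM after IFN-β. It rose 2.62-fold under LPS (log2 1.39 ± 0.07, adjusted p = 2.85e-08) and 2.08-fold under IFN-β (log2 1.06 ± 0.07, adjusted p = 1.5e-06). Slc25a13 stood at 29.2, 32.3 and 29.1 CPM, fell to 17.7, 18.7 and 17.4 CPM after LPS and to 24.6, 24.2 and 22.6 CPM after IFN-β. Its falls were 1.68-fold (log2 -0.75 ± 0.07, adjusted p = 4.41e-06) and 1.27-fold (log2 -0.34 ± 0.07, adjusted p = 0.00251). Both members were farther from unstimulated cells after LPS than after IFN-β, by 0.33 on the log2 scale for Slc25a12 (IFN-β against LPS -0.33, adjusted p = 0.00169) and by 0.41 for Slc25a13 (adjusted p = 0.000867). With library-size scaling the Slc25a12 difference between the stimuli was -0.05 (adjusted p = 0.48).

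The ratio of the pair within each library does not depend on scaling. Counts per kilobase of annotated exon gave a Slc25a12 to Slc25a13 ratio of 0.90, 0.85 and 0.89 in unstimulated libraries, 4.09, 3.72 and 3.84 after LPS, and 2.33, 2.13 and 2.54 after IFN-β. The ratio was thus higher in every stimulated library than in any unstimulated one. Its absolute size rests on exon lengths of 7342 bp for Slc25a12 and 3798 bp for Slc25a13 over all isoforms, so which transcript was the more abundant before stimulation is uncertain.

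Slc25a15, the ornithine carrier of the urea cycle, fell. Its 3 unstimulated libraries held 11.1, 8.94 and 9.23 CPM, against 4.85, 3.87 and 3.35 CPM after LPS and 7.35, 4.51 and 4.7 CPM after IFN-β. The fall was 2.43-fold under LPS (log2 -1.28 ± 0.20, adjusted p = 0.0002) and 1.76-fold under IFN-β (log2 -0.82 ± 0.19, adjusted p = 0.00577). Library A was the highest of each group, and the difference between the stimuli was 0.47 (adjusted p = 0.0856), or 0.45 (adjusted p = 0.0052) with the library letter as a block. Slc25a44, a carrier of branched-chain amino acids, went from 35.4, 37.4 and 35.6 CPM to 56, 50.7 and 48.6 CPM under LPS (log2 0.52 ± 0.07, adjusted p = 6.29e-05) and to 43.1, 44 and 47.1 CPM under IFN-β (log2 0.31 ± 0.07, adjusted p = 0.0044). With library-size scaling these values were -0.07 and 0.00, so the rise of Slc25a44 rests on the TMM factors. Its difference between the stimuli, -0.21 (adjusted p = 0.0282), lost its call without LPS library A (-0.16, adjusted p = 0.0905), without IFN-β library A (-0.19, adjusted p = 0.0778) or without IFN-β library B (-0.20, adjusted p = 0.0905). Slc25a2, Slc25a29 and Slc25a38, carriers of ornithine, basic amino acids and glycine, had log2 values of 0.21, -0.43 and 0.06 under LPS that did not pass the threshold. That of Slc25a29 passed with the library letter as a block (-0.44, adjusted p = 0.0375), and without IFN-β library A (adjusted p = 0.0422) or C (adjusted p = 0.0429).

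**Figure D2:**
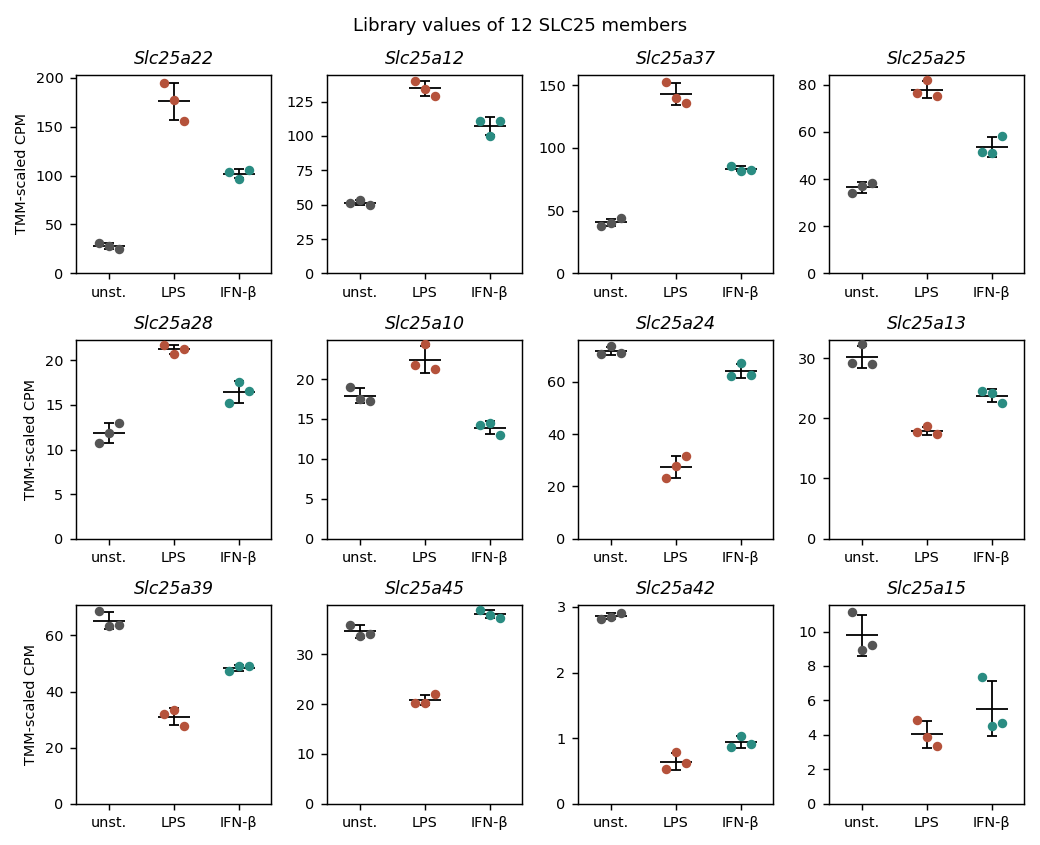
CPM after TMM scaling (y axis, from 0) in each of the 3 libraries A, B and C, left to right, of unstimulated, LPS and IFN-β cells for 12 SLC25 members, with the mean and SD as a bar. The groups of Slc25a22 stand apart at 24.9 to 31.1, 156 to 194 and 96.7 to 106 CPM, while Slc25a24 is at 23.2 to 31.6 CPM after LPS only and Slc25a10 moves up with LPS and down with IFN-β.

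Iron and glutathione carriers also split. Slc25a37 and Slc25a28 encode mitoferrin 1 and 2, which bring iron into mitochondria for heme and iron-sulfur clusters. Slc25a37 stood at 38.1, 40.1 and 43.9 CPM in unstimulated libraries, 153, 140 and 136 CPM after LPS and 85.6, 81.6 and 82.7 CPM after IFN-β. It rose 3.51-fold under LPS (log2 1.81 ± 0.07, adjusted p = 1.08e-08) and 2.05-fold under IFN-β (log2 1.03 ± 0.07, adjusted p = 2.67e-06), and LPS exceeded IFN-β by 1.71-fold (adjusted p = 8.12e-06). Of its 6021 bp of annotated exon, 473 bp overlap exons on the opposite strand. Slc25a28, at 10.7, 11.8 and 13 CPM, reached 21.8, 20.7 and 21.3 CPM after LPS and 15.2, 17.6 and 16.5 CPM after IFN-β. It rose 1.79-fold (log2 0.84 ± 0.09, adjusted p = 9.61e-06) and 1.39-fold (log2 0.47 ± 0.09, adjusted p = 0.00149), and with library-size scaling by 0.26 (adjusted p = 0.0486) and 0.16 (adjusted p = 0.216). The ratio of Slc25a37 to Slc25a28 per kilobase was 2.10 to 2.22 before stimulation, 3.97 to 4.37 after LPS and 2.89 to 3.51 after IFN-β, so the mitoferrin 1 transcript gained on that of mitoferrin 2.

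Slc25a39, a mitochondrial glutathione importer, fell from 68.8, 63.3 and 63.6 CPM to 32, 33.5 and 27.6 CPM under LPS and to 47.3, 49 and 48.9 CPM under IFN-β. The fall was 2.1-fold (log2 -1.07 ± 0.08, adjusted p = 5.05e-07) and 1.35-fold (log2 -0.43 ± 0.08, adjusted p = 0.000976), and IFN-β libraries lay 1.56-fold above LPS libraries (adjusted p = 5.71e-05). Its paralog Slc25a40 had a log2 value of -0.18 under LPS (adjusted p = 0.133). The ratio of Slc25a39 to Slc25a40 per kilobase went from 24.2 to 29.4 in unstimulated libraries to 13.0 to 15.5 after LPS and 17.6 to 21.2 after IFN-β. Slc25a39 remained the dominant transcript of the pair in all 9 libraries.

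The carriers of adenine nucleotides and phosphate, which feed ATP synthase, held the most abundant members. Of the 6, 1 rose and 4 fell under LPS, where 32.8% of all genes rose and 35.4% fell. Under IFN-β 1 of the 6 rose and 1 fell, where 23.6% of all genes rose and 23.3% fell. Slc25a5 encodes ANT2 and Slc25a4 ANT1, the ADP/ATP exchangers. Slc25a5 stood at 295, 274 and 275 CPM in unstimulated, 249, 222 and 226 CPM in LPS and 279, 258 and 273 CPM in IFN-β libraries. It fell 1.21-fold under LPS (log2 -0.28 ± 0.07, adjusted p = 0.00482) and had a log2 value of -0.06 ± 0.07 under IFN-β (adjusted p = 0.526). The difference between the stimuli, 0.22 (adjusted p = 0.0248), lost its call without any of 4 libraries, at 0.19 without IFN-β library A (adjusted p = 0.0836), 0.21 without IFN-β library C (adjusted p = 0.0662), 0.18 without LPS library B (adjusted p = 0.0954) and 0.19 without LPS library C (adjusted p = 0.0805). Of the 100-base windows of Slc25a5 exons, 8.33% also occur in exons of other annotated genes such as Gm5560, so its counts may be affected.

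Slc25a4 stood at 78, 78.6 and 84.2 CPM in unstimulated, 52.6, 55.7 and 59 CPM in LPS and 56.8, 66 and 65.2 CPM in IFN-β libraries. It fell 1.44-fold under LPS (log2 -0.52 ± 0.08, adjusted p = 9.75e-05) and 1.28-fold under IFN-β (log2 -0.36 ± 0.07, adjusted p = 0.00276). IFN-β and LPS differed by 0.17 (adjusted p = 0.089), or by 0.17 with an adjusted p of 0.0183 with the library letter as a block and by 0.23 without IFN-β library A (adjusted p = 0.0285). The ratio of Slc25a5 to Slc25a4 per kilobase was 4.67 to 5.40, 5.47 to 6.78 and 5.60 to 7.01 in the unstimulated, LPS and IFN-β libraries, so both stimulated groups lay above the unstimulated libraries and overlapped each other. Slc25a3, the phosphate carrier, stood at 241, 232 and 236 CPM in unstimulated, 239, 231 and 212 CPM in LPS and 220, 214 and 223 CPM in IFN-β libraries. Its log2 values were -0.06 ± 0.06 (adjusted p = 0.453) and -0.11 ± 0.06 (adjusted p = 0.185), though upper-quartile scaling called both (-0.15, adjusted p = 0.0397, and -0.19, adjusted p = 0.0211).

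The remaining 3 of this class are ATP-Mg/phosphate carriers, which respond to calcium and adjust the adenine nucleotide pool of the matrix. Slc25a25 rose from 34, 37.2 and 38.3 CPM to 76.6, 81.9 and 75.1 CPM under LPS and to 51.3, 51.1 and 58.2 CPM under IFN-β. The rise was 2.13-fold (log2 1.09 ± 0.08, adjusted p = 3.6e-07) and 1.47-fold (log2 0.55 ± 0.07, adjusted p = 0.000184). Slc25a24 stood at 70.7, 73.5 and 71 CPM in unstimulated, 23.2, 27.7 and 31.6 CPM in LPS and 62.3, 67.3 and 62.7 CPM in IFN-β libraries. It fell 2.61-fold under LPS (log2 -1.38 ± 0.10, adjusted p = 4.51e-07) and was 2.33-fold higher in IFN-β than in LPS libraries (log2 1.22 ± 0.10, adjusted p = 3.2e-06). Under IFN-β its log2 value was -0.16 ± 0.10 (adjusted p = 0.187), or -0.17 (adjusted p = 0.0327) when only those 2 groups were fitted.

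The ratio of Slc25a25 to Slc25a24 per kilobase was 0.21, 0.22 and 0.24 in unstimulated libraries, 1.44, 1.29 and 1.04 after LPS, and 0.36, 0.33 and 0.41 after IFN-β. The ratio was thus highest in the 3 LPS libraries, and its absolute size rests on exon lengths over all isoforms. Slc25a25 shares 379 bp of exon with Naif1 on the opposite strand. Slc25a23 was near the detection limit, with 34, 28 and 41 counts in unstimulated, 4, 3 and 9 in LPS and 14, 9 and 24 in IFN-β libraries. It fell under LPS (log2 -2.23 ± 0.46, adjusted p = 0.00135) and had a log2 value of -0.98 ± 0.38 under IFN-β (adjusted p = 0.0579). With the library letter as a block the latter was -1.01 (adjusted p = 0.00782), without IFN-β library C -1.48 (adjusted p = 0.0128) and without LPS library C -0.99 (adjusted p = 0.0487). The IFN-β value less the LPS value was 1.25 (adjusted p = 0.0637), 1.25 with the block (adjusted p = 0.0175), 1.52 without IFN-β library B (adjusted p = 0.0377) and 1.82 without LPS library C (adjusted p = 0.0343).

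**Figure D3:**
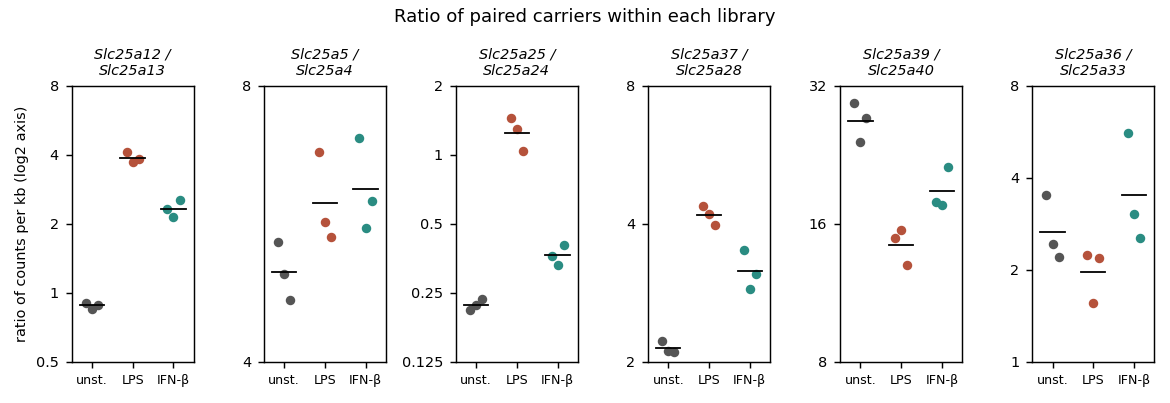
Ratio of counts per kilobase of exon (y axis, log2 scale) of 6 pairs of related carriers in each library of unstimulated, LPS and IFN-β cells, with the geometric mean as a line. Slc25a12 to Slc25a13 goes from 0.85 to 0.90 up to 3.72 to 4.09 after LPS, while Slc25a36 to Slc25a33 overlaps between unstimulated and both stimulated groups.

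The 6 pairs were chosen after the values had been seen, and 18 comparisons of ratios were made. With 3 libraries against 3 the exact two-sided permutation test can give no p below 0.1, and p was 0.1 (Benjamini-Hochberg adjusted 0.12) wherever groups did not overlap. This was so in all 3 comparisons for Slc25a12/Slc25a13, Slc25a25/Slc25a24, Slc25a37/Slc25a28 and Slc25a39/Slc25a40. For Slc25a36/Slc25a33, carriers of pyrimidine nucleotides, exact p was 0.2 under LPS (adjusted 0.225) and 0.4 under IFN-β (adjusted 0.424). Between the stimuli it was 0.1 (adjusted 0.12), with ratios of 2.55 to 5.61 after IFN-β and 1.56 to 2.24 after LPS. For Slc25a5/Slc25a4 exact p was 0.1 under each stimulus (adjusted 0.12) and 0.6 between them (adjusted 0.6).

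Citrate and dicarboxylate carriers export citrate for cytosolic acetyl-CoA and exchange malate, succinate and oxoglutarate. Slc25a1, the citrate carrier, stood at 45.6, 38 and 42.3 CPM in unstimulated, 64.2, 61.3 and 60.2 CPM in LPS and 51.5, 43.3 and 50.3 CPM in IFN-β libraries. It rose 1.48-fold under LPS (log2 0.56 ± 0.09, adjusted p = 0.000162), a value that was -0.02 with library-size scaling. Under IFN-β its log2 value was 0.21 ± 0.09 (adjusted p = 0.0715), with the block 0.21 (adjusted p = 0.00839), and 0.28 without IFN-β library B (adjusted p = 0.0241) or 0.27 without unstimulated library A (adjusted p = 0.0404). Library B was the lowest in both the unstimulated and the IFN-β group.

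Slc25a10, the dicarboxylate carrier, was called in opposite directions by the stimuli. It stood at 19, 17.5 and 17.3 CPM in unstimulated, 21.7, 24.4 and 21.2 CPM in LPS and 14.2, 14.5 and 13 CPM in IFN-β libraries. The rise under LPS was 1.25-fold (log2 0.32 ± 0.08, adjusted p = 0.00452) and the fall under IFN-β 1.29-fold (log2 -0.36 ± 0.08, adjusted p = 0.00418). With library-size scaling the LPS value turned to -0.26 (adjusted p = 0.024), while the difference between the stimuli, -0.69 ± 0.08 (adjusted p = 5.59e-05), remained at -0.41 (adjusted p = 0.00291). Slc25a10 shares 228 bp of exon with an opposite-strand gene. Slc25a11, the oxoglutarate-malate carrier of the malate-aspartate shuttle, went from 66.5, 61.6 and 65.1 CPM to 48.6, 49 and 48.9 CPM under LPS, a 1.32-fold fall (log2 -0.40 ± 0.06, adjusted p = 0.000182). After IFN-β it stood at 58.6, 55.1 and 62.1 CPM (log2 -0.14 ± 0.06, adjusted p = 0.0952, or 0.042 with the block), above all LPS libraries (adjusted p = 0.00517).

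Of 9 carriers of cofactors and nucleotides, 6 fell and 1 rose under LPS, where 35.4% of all genes fell and 32.8% rose. Under IFN-β 5 of the 9 fell and 0 rose, where 23.3% of all genes fell and 23.6% rose. Slc25a42, which exchanges coenzyme A, fell most, from 2.81, 2.85 and 2.91 CPM to 0.531, 0.787 and 0.614 CPM under LPS and to 0.867, 1.04 and 0.911 CPM under IFN-β. The fall was 4.39-fold (log2 -2.13 ± 0.18, adjusted p = 2.01e-06) and 3.04-fold (log2 -1.61 ± 0.17, adjusted p = 3.97e-05), on 15 to 27 counts per LPS library. The stimuli differed by 0.53 (adjusted p = 0.0502), and without LPS library B by 0.70 (adjusted p = 0.0264). Slc25a26, the carrier of the methyl donor S-adenosylmethionine, fell from 6.61, 6.49 and 5.84 CPM to 4.03, 3.85 and 4.02 CPM under LPS (log2 -0.67 ± 0.11, adjusted p = 0.000274) and to 4.31, 4.59 and 3.87 CPM under IFN-β (log2 -0.57 ± 0.11, adjusted p = 0.0016). Its LPS and IFN-β groups overlapped.

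Slc25a36, a pyrimidine nucleotide carrier, stood at 46, 43.5 and 43.5 CPM in unstimulated, 33.1, 27.3 and 32 CPM in LPS and 46.8, 42.7 and 38.3 CPM in IFN-β libraries. It fell 1.44-fold under LPS (log2 -0.53 ± 0.09, adjusted p = 0.000407), while its log2 value under IFN-β was -0.06 ± 0.09 (adjusted p = 0.628). Slc25a17, the peroxisomal carrier of coenzyme A and related nucleotides, was the other member with opposite calls, at 18, 17.7 and 18.6 CPM in unstimulated, 21.6, 20.3 and 21.6 CPM in LPS and 14.9, 14.6 and 15.4 CPM in IFN-β libraries. It rose by 0.23 ± 0.07 on the log2 scale under LPS (adjusted p = 0.0105) and fell by 0.28 ± 0.07 under IFN-β (adjusted p = 0.00594). The rise was 0.20 without unstimulated library B (adjusted p = 0.0522), 0.13 with upper-quartile scaling (adjusted p = 0.116) and -0.36 with library-size scaling (adjusted p = 0.00124). The difference between the stimuli, -0.50 (adjusted p = 0.000115), was -0.23 on the last scale (adjusted p = 0.0286).

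Slc25a51, the mitochondrial NAD+ carrier, passed the threshold in no comparison. Its libraries held 70.1, 66.1 and 64.2 CPM unstimulated, 55.7, 57.2 and 69 CPM after LPS and 70.4, 63.2 and 64.6 CPM after IFN-β, with log2 values of -0.14 ± 0.09 (adjusted p = 0.175) and -0.02 ± 0.09 (adjusted p = 0.897). LPS library C stood above the other LPS libraries, and without it the LPS value was -0.24 (adjusted p = 0.0147) and the difference between the stimuli 0.22 (adjusted p = 0.033). Slc25a16 and Slc25a32, linked to coenzyme A and to folate or FAD, fell under LPS with log2 values of -0.53 and -0.62. Under IFN-β both also fell, each with a log2 value of -0.25 (adjusted p = 0.0166 and 0.0426). Neither IFN-β call was kept under every alternative fit, while both LPS calls were.

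Slc25a20, the carnitine-acylcarnitine carrier through which long-chain fatty acids enter for oxidation, stood at 15.5, 16.8 and 14.4 CPM in unstimulated, 16.6, 16.6 and 14 CPM in LPS and 19.6, 17.7 and 17 CPM in IFN-β libraries. Its log2 value was 0.01 ± 0.10 under LPS (adjusted p = 0.918) and 0.22 ± 0.10 under IFN-β (adjusted p = 0.0875). With the library letter as a block the IFN-β value of 0.22 had an adjusted p of 0.0237, and the difference between the stimuli went from 0.20 (adjusted p = 0.104) to 0.21 (adjusted p = 0.0319). With library-size scaling the values were -0.57 and -0.09.

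Slc25a30, related to the uncoupling proteins, fell from 28.4, 30.8 and 29.5 CPM to 16.9, 17.1 and 18.2 CPM under LPS (log2 -0.77 ± 0.08, adjusted p = 1.02e-05). Under IFN-β it held 28.3, 25.6 and 23.4 CPM (log2 -0.20 ± 0.08, adjusted p = 0.0661), with the block -0.20 (adjusted p = 0.0379) and without IFN-β library A -0.28 (adjusted p = 0.0191). Slc25a14, of the same class, had a log2 value of -0.12 under LPS. Slc25a46, the outer membrane member linked to mitochondrial fission and fusion, rose by 0.22 on the log2 scale under LPS (adjusted p = 0.0213). That call was lost without LPS library A (0.18, adjusted p = 0.0724), unstimulated library A (0.18, adjusted p = 0.0792) or unstimulated library C (0.20, adjusted p = 0.0663), and the sign turned to -0.37 with library-size scaling. Under IFN-β it rose by 0.22 (adjusted p = 0.0301), which was 0.15 without IFN-β library A (adjusted p = 0.131), 0.19 without unstimulated library A (adjusted p = 0.0966), 0.21 without unstimulated library C (adjusted p = 0.0841) and -0.09 with library-size scaling (adjusted p = 0.318).

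Among 6 members without a settled substrate, 1 rose and 2 fell under LPS, where 32.8% of all genes rose and 35.4% fell. Under IFN-β 0 of the 6 rose and 1 fell, where 23.6% of all genes rose and 23.3% fell. Slc25a45 fell under LPS only, from 36, 33.7 and 34.1 CPM to 20.2, 20.3 and 22.1 CPM (log2 -0.73 ± 0.06, adjusted p = 2.27e-06). After IFN-β it held 39, 37.9 and 37.3 CPM, above every unstimulated library, with a log2 value of 0.14 ± 0.06 that did not pass the threshold (adjusted p = 0.0968) and was -0.17 with library-size scaling. It was 1.83-fold higher in IFN-β than in LPS libraries (log2 0.87 ± 0.06, adjusted p = 1.79e-06). Slc25a35 fell from 3.52, 3.26 and 2.75 CPM to 0.885, 1.28 and 1.47 CPM under LPS (log2 -1.38 ± 0.21, adjusted p = 0.000176) and to 2.04, 1.7 and 2.43 CPM under IFN-β (log2 -0.63 ± 0.20, adjusted p = 0.0245).

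The IFN-β call of Slc25a35 was lost without IFN-β library A (-0.63, adjusted p = 0.0617), IFN-β library B (-0.51, adjusted p = 0.0948), unstimulated library A (-0.55, adjusted p = 0.0729) or unstimulated library B (-0.61, adjusted p = 0.0664). Its difference between the stimuli, 0.75 (adjusted p = 0.0159), was 0.62 without IFN-β library C (adjusted p = 0.0594) and 0.57 without LPS library A (adjusted p = 0.0567). Of its 3677 bp of exon, 1151 bp overlap Rangrf on the opposite strand, so without a known strand setting the counts of Slc25a35 are uncertain. Opposite-strand exons also overlap Slc25a33 (281 of 1887 bp), Slc25a11 (189 of 2120 bp), Slc25a46 (383 of 5425 bp), Slc25a23 (168 of 5294 bp) and Slc25a26 (144 of 4807 bp). Slc25a43 rose under LPS by 0.39 on the log2 scale, which was -0.19 with library-size scaling. Slc25a34, Slc25a47 and Slc25a53 had log2 values of -0.15, -0.06 and -0.07 under LPS that did not pass the threshold. Neither did that of Slc25a33, counted above among the carriers of cofactors and nucleotides, at -0.12.

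Levels of different members can be compared only per length. CPM per kilobase of annotated exon summed over the family to 473 ± 10.3 (SD, n = 3) in unstimulated, 459 ± 13.8 in LPS and 476 ± 11.1 in IFN-β libraries. These sums include the TMM factors, which differ between the groups, so how the groups compare depends on that scaling. Sums scaled by library size alone were not computed. Slc25a5 alone made up 36.1%, 30.7% and 34.5% of the TMM-scaled sum. In unstimulated cells it stood at 171 ± 7.03 CPM per kilobase, followed by Slc25a3 at 42.5 ± 0.80, Slc25a4 at 34.1 ± 1.45, Slc25a11 at 30.4 ± 1.19 and Slc25a39 at 23.7 ± 1.12, none of which overlapped its neighbour. Slc25a24 at 20.9 ± 0.46 and Slc25a1 at 19.4 ± 1.76 overlapped, as did Slc25a45 at 12.5 ± 0.44 and Slc25a51 at 12.1 ± 0.54. Exon length here takes in every annotated isoform, which understates members with long rare isoforms such as Slc25a3 with 5550 bp.

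Stimulation changed this order. Slc25a22 was the member ranked 20 in unstimulated cells at 4.65 ± 0.51 CPM per kilobase, ranked 3 after LPS at 29.3 ± 3.17 and 8 after IFN-β at 17.0 ± 0.80. Slc25a37 moved from rank 13 to 5 after LPS and 10 after IFN-β, and Slc25a12 from 12 to 8 and 9. Slc25a24 moved from rank 6 to 13 after LPS and kept rank 6 after IFN-β. Several neighbours in rank overlapped in their library values and do not have a settled order. In unstimulated cells Slc25a22 overlapped, among others, Slc25a10, Slc25a38, Slc25a43, Slc25a25 and Slc25a36, and Slc25a37 overlapped Slc25a12, Slc25a30 and Slc25a17. After LPS Slc25a22 overlapped Slc25a1, and Slc25a37 overlapped Slc25a4 and Slc25a11. In the same group Slc25a24 overlapped Slc25a45, Slc25a17, Slc25a46 and Slc25a10. After IFN-β Slc25a22 overlapped Slc25a39, and Slc25a12, Slc25a37 and Slc25a45 overlapped each other. Slc25a5, at 141 ± 9.10 CPM per kilobase after LPS and 164 ± 6.40 after IFN-β, held rank 1 in all groups.

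**Figure D4:**
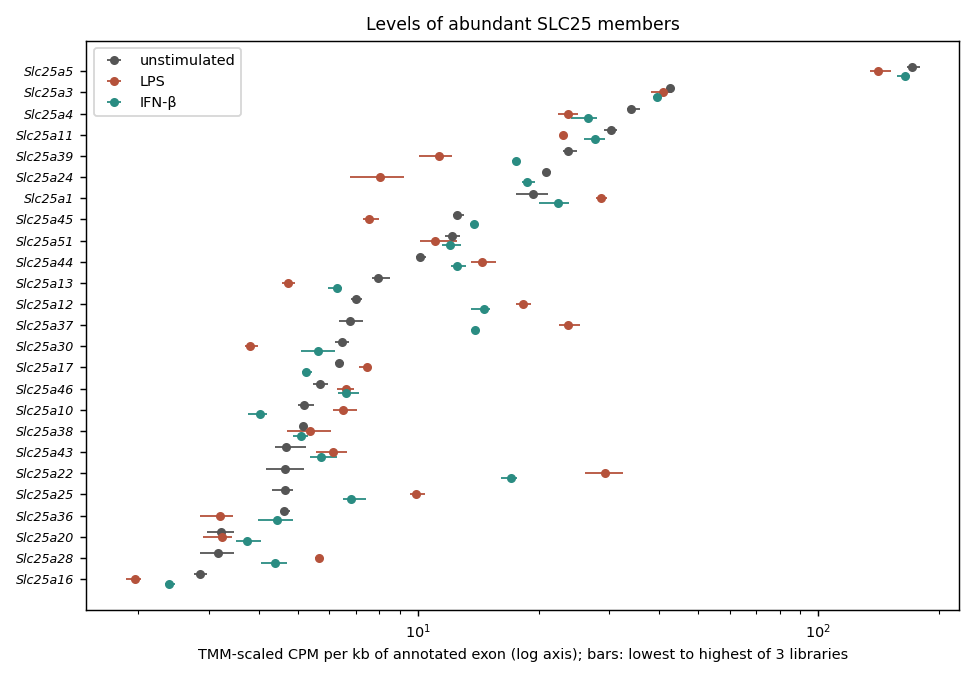
CPM after TMM scaling per kilobase of annotated exon (x axis, log scale) of abundant members, ordered by their level in unstimulated cells, with points for the group means and bars from the lowest to the highest of 3 libraries. Slc25a5 stands alone at 141 to 171, and Slc25a22 moves from 4.65 in unstimulated to 29.3 in LPS cells.

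Genes that work beside the carriers were counted from lists written with earlier results known. Of the family's relatives under other symbols, the uncoupling protein Ucp2 and the membrane proteins Mtch1 and Mtch2 were tested. All 3 fell under LPS and 1 under IFN-β, where 35.4% and 23.3% of all genes fell. Ucp2, which lets protons or metabolites through the inner membrane, stood at 790 ± 50.7 (SD, n = 3) in unstimulated, 434 ± 31.5 in LPS and 676 ± 16.1 in IFN-β libraries (log2 -0.86 and -0.23, adjusted p = 3.77e-06 and 0.0406). Among 15 tested genes of the machinery that imports carriers, at the outer membrane and further inside, 1 rose and 10 fell under each stimulus. Of all genes, 32.8% rose and 35.4% fell under LPS, and 23.6% rose and 23.3% fell under IFN-β. With library-size scaling 1 rose and 14 fell under each, where 17.1% and 13.2% of all genes rose and 60.9% and 46% fell. The riser was Tomm70a, the outer membrane receptor for carrier precursors, at log2 1.07 under LPS (adjusted p = 1.71e-05) and 0.89 under IFN-β (adjusted p = 0.000198). The small chaperone Timm9 fell most, by 1.96 on the log2 scale under LPS (adjusted p = 1.99e-06) and by 1.20 under IFN-β (adjusted p = 0.000165).

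Of 17 other inner membrane transporters, 3 rose and 11 fell under LPS, and 3 rose and 7 fell under IFN-β. Of all genes, 32.8% rose and 35.4% fell under LPS, and 23.6% rose and 23.3% fell under IFN-β. With library-size scaling 1 transporter rose and 15 fell under LPS, and 3 rose and 12 fell under IFN-β. On that scale 17.1% of all genes rose and 60.9% fell under LPS, and 13.2% rose and 46% fell under IFN-β. With TMM scaling, Micu2, a calcium uptake regulator, rose most of the 17 under LPS, at 0.82 (adjusted p = 2.72e-06). The sideroflexin Sfxn5 fell most, at -1.72 (adjusted p = 7.29e-07). Under IFN-β, Mcur1 rose most at 0.77 (adjusted p = 1.87e-05), and Abcb8 fell most at -0.87 (adjusted p = 0.00011). The pyruvate carrier subunits diverged under LPS, Mpc1 at 0.25 (adjusted p = 0.00336) and Mpc2 at -0.32 (adjusted p = 0.00248), although Mpc1 was at -0.33 with library-size scaling. Of the outer membrane channels, Vdac1 fell by 0.53 and Vdac3 rose by 0.70 on the log2 scale under LPS (adjusted p = 6.16e-06 and 9.04e-07), the latter being 0.12 with library-size scaling (adjusted p = 0.139), and under IFN-β Vdac1 fell by 0.28 (adjusted p = 0.00145) and Vdac2 rose by 0.21 (adjusted p = 0.0237), the latter being -0.10 with library-size scaling (adjusted p = 0.276).

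Among 14 enzymes of the shuttles and of citrate use, 4 rose and 7 fell under LPS, and 3 rose and 6 fell under IFN-β, against 2 and 10, and 2 and 11, with library-size scaling. The shares of all genes that rose were 32.8% and 23.6%, and 17.1% and 13.2% with library-size scaling. The shares of all genes that fell were 35.4% and 23.3%, and 60.9% and 46% with library-size scaling. Acod1, which makes itaconate from the citrate-derived cis-aconitate, rose from 199 ± 28.6 CPM (SD, n = 3) to 5498 ± 231 under LPS (log2 4.79, adjusted p = 4.13e-09) and to 1785 ± 271 under IFN-β (log2 3.17, adjusted p = 4.38e-07). Gpd1 was lower under LPS (adjusted p = 0.000505) and under IFN-β (adjusted p = 0.0347), but it was close to the detection limit. Its libraries held 0.760, 0.741 and 0.316 CPM unstimulated, 0.0708, 0.117 and 0.0307 CPM after LPS, of which A and C lie under the limit of 3 counts, and 0.258, 0.345 and 0.193 CPM after IFN-β. The 8 DC and myeloid markers summed to 15001 to 18813 CPM in unstimulated, 14550 to 17340 in LPS and 14920 to 16745 in IFN-β libraries, and the 10 markers of other cells to 1.48 to 2.08, 1.60 to 2.62 and 0.984 to 1.66. Of the former, 5 were higher under LPS, where 32.8% of all genes rose, and 0 under IFN-β, where 23.6% did. With library-size scaling 0 of the 8 were higher and 4 lower under LPS, where 17.1% of all genes rose and 60.9% fell. The part that shifts of these markers had in the responses of the carriers was not tested.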

How the data were processed

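Total RNA from DC cultures was depleted of ribosomal RNA, and libraries were made with a KAPA RNA HyperPrep kit. Per the labels and the study's methods, the authors trimmed reads with Trim Galore 0.6.0 and aligned them with STAR to GRCm38. The submitters' processing notes give STAR 2.7.8a. The deposited table holds whole-number counts per gene for 9 libraries, which are neither normalized nor pooled, and the strand setting of the counting is not given in the sources used here.

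Genes were kept by edgeR's filterByExpr and fitted in one quasi-likelihood model over 3 groups with TMM factors (edgeR 4.0.16, R 4.3.3, Benjamini-Hochberg adjustment over 16260 genes). The fold changes are on the fitted scale. DESeq2 1.42.0, other scalings and filters, fits of 2 groups and fits without each library were alternatives. The test was checked before use on simulated counts with few changed genes and no effect of the library letter. That check does not bear on the scaling or on the letters. Single ratios were compared by exact permutation. Exon lengths, strands and overlaps came from GENCODE M21 (GRCm38), where all 47 members were matched by identifier, and promoter windows from RefSeq (GRCm38.p6).

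Libraries with the same letter deviated together from their group means, with a correlation of 0.13 to 0.55 in 9 pairs, so the letter was also fitted as a replicate block. The block called 1 further member under LPS, 7 under IFN-β and 4 between the stimuli, lost no call and reversed none. Calls over all 16260 genes also increased with the block. They went from 11084 to 11950 under LPS, from 7631 to 9151 under IFN-β and from 7989 to 9425 between the stimuli. No libraries of a group agreed within sampling noise (chi-square per degree of freedom of at least 13.5). The depth of 33425803 to 43735199 counts per library left a limit of 3 counts for a transcript at 0, which covers counting error only.

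Members were named by rule: in each comparison the 6 largest rises and 6 largest falls past the threshold, members with opposite calls, the 3 most abundant per kilobase and chosen carriers of well-known role. From the other lists, the largest rise and fall and a few chosen genes were named. Other members whose calls changed with the processing were added after their values had been seen. Members, lists and motifs were chosen with earlier results of these data known. The values of 1 member, which is included in the counts, are not reported here.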

Additional observations from a re-analysis of the deposited data

How the results depend on the processing

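Among the 28 members called under LPS, 22 kept their call and direction under every alternative fit that tested them. Under every such fit but library-size scaling 26 did. Slc25a23, counted in both, was not tested where 10 counts were required in every library. The stricter cutoffs for adjusted p and fold change are not part of this tally. For IFN-β these numbers were 12 and 14 of 18, and for IFN-β against LPS 14 and 17 of 23. Library-size scaling gave 5 members higher and 31 lower under LPS, 4 and 23 under IFN-β, and 24 and 5 between the stimuli, where 60.9% of all genes fell under LPS, 46% fell under IFN-β and 43.2% were higher in IFN-β than in LPS libraries. In the opposite directions the shares of all genes were 17.1%, 13.2% and 12.3%. A minimum absolute log2 fold change of 1 left 4 and 6, 3 and 1, and 1 and 0. An adjusted p under 0.01 left 8 members higher in IFN-β than in LPS libraries. The shares of all genes at these stricter cutoffs were not computed. With the replicate block the counts were 11 and 18, 10 and 15, and 18 and 9, and beyond the calls given with the results it changed those of Slc25a33 (-0.45, adjusted p = 0.0233) and Slc25a43 (0.29, adjusted p = 0.0074) under IFN-β and no other call. Of all genes, the block called 11950, 9151 and 9425 in these comparisons, against 11084, 7631 and 7989 without it. Leaving out 1 library gave 10 to 11 higher and 17 to 18 lower under LPS, 6 to 8 and 8 to 12 under IFN-β, and 10 to 13 and 8 to 9 between the stimuli. Calls over all genes then ranged from 10455 to 11234, from 6467 to 7742 and from 6858 to 8049. DESeq2 gave 11 and 17, 7 and 10, and 12 and 9, and over all genes it made 10872, 7484 and 7929 calls.

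Among called members and the uncalled ones named by rule, signs turned under LPS with library-size scaling for Slc25a1 (-0.020), Slc25a10 (-0.26), Slc25a17 (-0.36), Slc25a43 (-0.19), Slc25a44 (-0.067), Slc25a46 (-0.37) and Slc25a20 (-0.57), and under IFN-β for Slc25a1 (-0.10), Slc25a20 (-0.091), Slc25a45 (-0.17) and Slc25a46 (-0.09). Between the stimuli they turned for Slc25a3 (0.22) and Slc25a44 (0.068). The uncalled LPS value of Slc25a20 was -0.081 with upper-quartile factors, -0.0069 without a filter, -0.0022 with at least 10 counts in every library, and ranged from -0.048 to 0.088 when a library was left out. The uncalled IFN-β values of Slc25a51 and Slc25a36 turned when a library was left out, with ranges of -0.070 to 0.019 for Slc25a51 and -0.14 to 0.015 for Slc25a36. The calls of Slc25a14 and Slc25a40 between the stimuli were lost with DESeq2 (adjusted p = 0.0925 and 0.118). Library-size scaling removes the composition factors by construction, and the cause of the other changes was not tested. Among the members called under LPS, counts were lowest for Slc25a23, at 3 to 9 per LPS library, and Slc25a42, at 15 to 27.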
